A study of Drosophila melanogaster with 12 samples.

Results

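Peptidoglycan recognition proteins are the fly's sensors and scavengers of bacterial cell wall fragments, and 10 of their genes were followed here in the adult midgut. The genes were chosen by symbol from the deposited count table, which has 17558 rows, and all 10 passed the filter on low counts that left 9686 genes for testing. In the gut, peptidoglycan shed by bacteria activates the Imd pathway, which ends in the NF-kappaB factor Relish and in antimicrobial peptide genes. Recognition proteins with amidase activity cut peptidoglycan and so damp that signal, while other members of the family bind it and pass the signal on. The 4 amidases among the 10 genes are PGRP-SC1a, PGRP-SC1b, PGRP-SC2 and PGRP-LB. The 2 receptors of the Imd pathway are PGRP-LC at the membrane and PGRP-LE inside the cell. The 2 membrane regulators are PGRP-LA and the inhibitor PGRP-LF. The 2 secreted recognition proteins are PGRP-SA of the Toll pathway and PGRP-SD, which was first described in that pathway.

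Poly-A RNA was sequenced from midguts of virgin Drosophila melanogaster aged 10 days, to learn what dsxRNAi does to the gut of each sex. The gene dsx encodes a male and a female transcription factor that set sexual traits of body cells, and dsxRNAi is an RNA interference construct against it. Each of the 4 groups had 3 libraries: females with dsxRNAi, female controls, males with dsxRNAi and male controls. The flies spent 6 days at 18 degrees C and then 4 days at 29 degrees C, which releases the driver from its temperature-sensitive inhibitor.

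For dsxRNAi flies of either sex the genotype was written as y[1] v[1] over w[*], dsxRNAi over mex1-Gal4, and tub-Gal80ts over a plain chromosome. For control flies of either sex it was written as y[1] v[1] over w[*], with mex1-Gal4 over a plain chromosome and UAS-GFP over tub-Gal80ts. Males carry a single X, so the X-linked part, y[1] v[1] over w[*], cannot hold for them as written. The mex1-Gal4 driver acts in enterocytes, which absorb nutrients, so the construct was not aimed at the other cells of the organ. All 4 groups carried the driver, tub-Gal80ts and the temperature shift. The construct, the stock it came from and the lack of UAS-GFP went together, so they cannot be told apart. Nothing in the labels says that the libraries of a group came from separate pools of flies. The p-values therefore measure the spread between these libraries, which may be technical in part.

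Between 36212113 and 45068874 counts were assigned to genes per library. The targeted gene dsx had 16.5, 22.3 and 19.9 normalised CPM (counts relative to the scaled size of the library) in dsxRNAi females and 18.6, 20.3 and 21.3 in control females. In males it had 35.2, 43.1 and 41.2 CPM under dsxRNAi, against 70.1, 59.1 and 53.2 in controls. It thus fell by 0.61 on the log2 scale in males (adjusted p = 0.00643) and differed by -0.04 in females (adjusted p = 0.946). The female effect minus the male effect on dsx was log2 0.57 and missed the threshold (edgeR adjusted p = 0.172). The driver's own gene mex1 averaged between 189 and 238 CPM in every group. Control female 1 and dsxRNAi male 2 stood farthest from the other libraries of their groups, and 3428 counts from a list of 5 accessory gland genes were found in control male 1, where each of the remaining 11 libraries had 0 to 5. The counts of recognition protein genes called were also made without these 3 libraries.

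The amidase genes PGRP-SC1a, PGRP-SC1b and PGRP-SC2 lie side by side on chromosome 2R in dm6 coordinates, all on the plus strand, each as 1 unbroken block of exon. PGRP-SC1a spans 8709733 to 8710320, PGRP-SC1b spans 8713446 to 8715094, and PGRP-SC2 spans 8716950 to 8717695. PGRP-SC1a and PGRP-SC1b are near-identical copies, so the split of their reads is uncertain, and between them lies CG14743, which had 234 counts over all 12 libraries. PGRP-LB is on chromosome 3R at 11452849 to 11460552, inside the span of CG17230 on the other strand but with no shared exon. PGRP-LA (9334332 to 9338336), PGRP-LC (9338810 to 9348336) and PGRP-LF (9349609 to 9351489) follow each other on the plus strand of chromosome 3L. PGRP-SD is elsewhere on 3L, at 7651180 to 7651900. Both PGRP-LE (15801153 to 15803880) and PGRP-SA (11561643 to 11562779) are X-linked. A stretch of 602 exonic bases of PGRP-LF is also exon of UGP on the opposite strand, and PGRP-SD shares 35 exonic bases with CG7492 in the same way.

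Per kb of exon, PGRP-SC2 was the most abundant of the 10 transcripts in every group. Its level averaged 1154 ± 261 CPM per kb in dsxRNAi females, 1036 ± 277 in control females, 1986 ± 590 in dsxRNAi males and 855 ± 38.4 in control males (SD, n = 3 each). PGRP-LB came second in dsxRNAi females (56.2 ± 2.02 CPM per kb), control females (46.7 ± 2.54) and control males (58.4 ± 0.903), and its libraries did not overlap those of its neighbours in that order. In dsxRNAi males PGRP-SC1a took the second place with 387 ± 187 CPM per kb, and PGRP-SC1b (121 ± 57.5) overlapped PGRP-LB (73.7 ± 19.7). The level of PGRP-SC1b per kb depends on which transcript is used, since its models run from 626 to 1649 bases.

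Among the 6 genes that are not amidases, PGRP-LE, the intracellular receptor, averaged 28.3 to 32.7 CPM per kb over the 4 groups, above PGRP-LA (at most 15.5) and the membrane receptor PGRP-LC (at most 12.6). This order depends on the length used. Transcripts of PGRP-LC run from 1172 to 2579 bases, while its exons together cover 3743. Those of PGRP-LE run from 1398 to 2073 bases, and those of PGRP-LA from 945 to 1698 against 2097 exonic bases. PGRP-LA and PGRP-LC overlapped in control males and were apart in dsxRNAi males. PGRP-LF, PGRP-SA and PGRP-SD were the 3 lowest in every group, between 0.478 and 2.88 CPM per kb. All 10 genes together took 0.0896 to 0.253% of the counts of a library, and the 4 amidases made up 82.6 to 95.5% of that share.

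**Figure D1:**
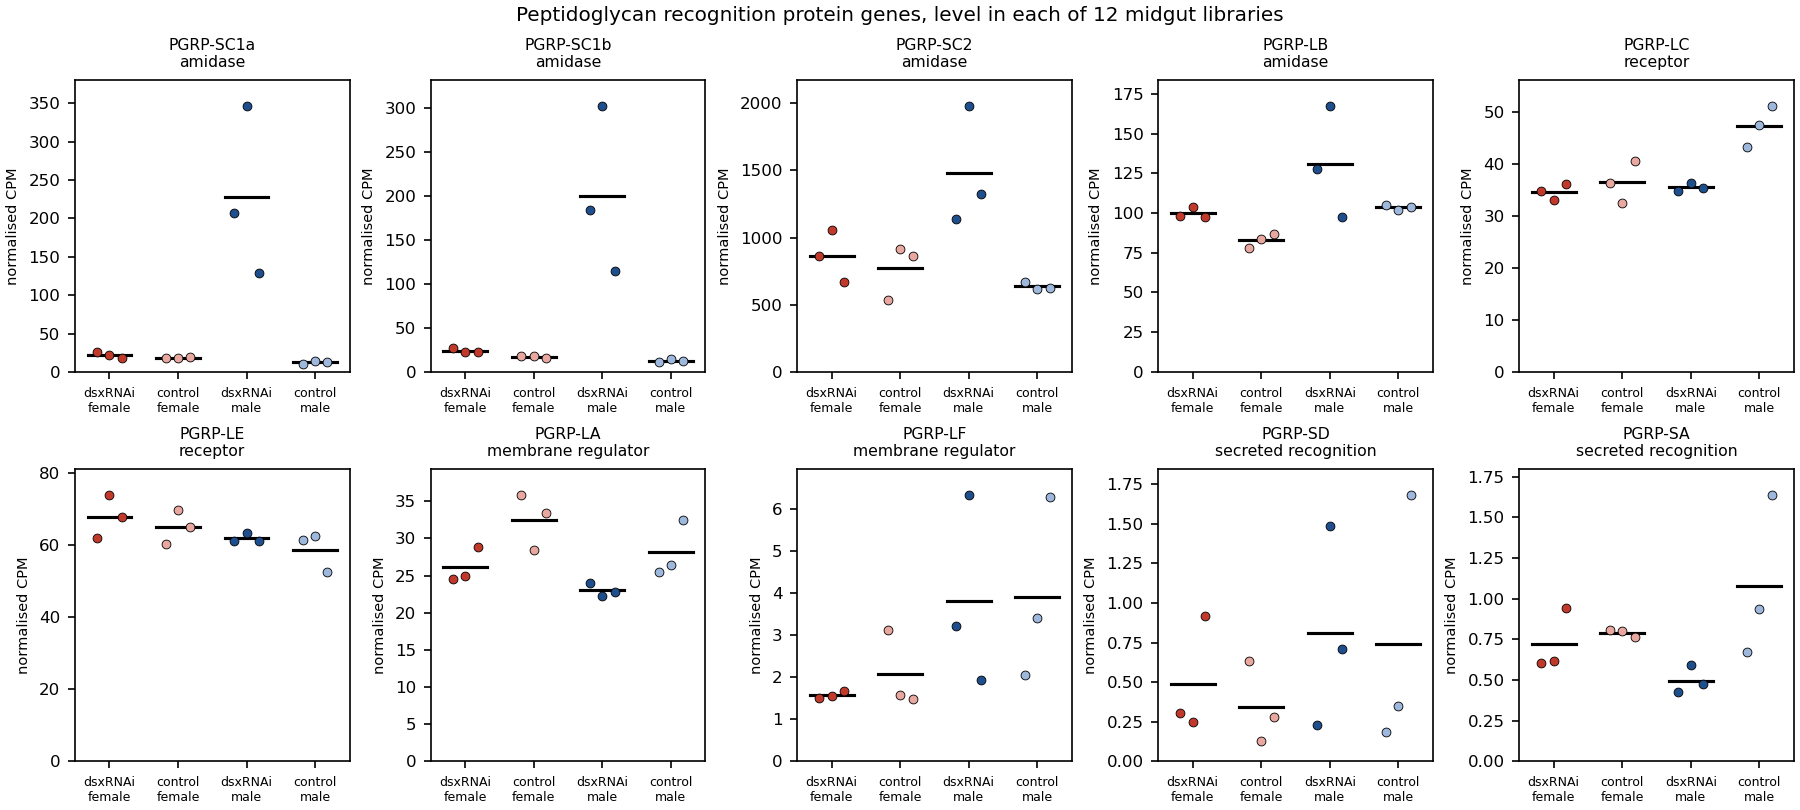
Normalised CPM (vertical axes, each starting at 0) of the 10 recognition protein genes in each of 12 libraries, by group. Points are libraries in the order of replicates 1 to 3 and bars are group means. In dsxRNAi males PGRP-SC1a had 129 to 346 CPM and PGRP-SC1b 114 to 301, against 10.8 to 14.4 and 11.2 to 14.2 in control males.

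In males, dsxRNAi went with higher transcript levels of the 3 clustered amidase genes, and PGRP-SC1a and PGRP-SC1b changed most. PGRP-SC1a had 207, 346 and 129 CPM in dsxRNAi males, against 10.8, 14.4 and 12.9 CPM in control males. Every dsxRNAi male library lay above every control male library, although the dsxRNAi libraries differed among themselves by 2.69 times. By edgeR's quasi-likelihood test the level was 17.9-fold higher (log2 4.16 ± 0.33 SE, 95% interval 3.43 to 4.89, adjusted p = 3.91e-05). Its near-identical neighbour PGRP-SC1b had 184, 301 and 114 CPM in dsxRNAi males, against 11.2, 14.2 and 12.6 CPM in control males. These groups were apart too, and the order of the libraries within each group was the same as for PGRP-SC1a. PGRP-SC1b was 15.8-fold higher (log2 3.98 ± 0.31 SE, adjusted p = 3.51e-05), and the summed counts of both copies gave a log2 change of 4.07. The count ratio of PGRP-SC1a over PGRP-SC1b was 1.14 ± 0.0108 in dsxRNAi males and 1.00 ± 0.0336 in control males.

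PGRP-SC2, the abundant gut amidase of the cluster, had 1140, 1978 and 1328 CPM in dsxRNAi males, against 671, 619 and 624 CPM in control males. Again no library of one group reached into the range of the other. The level was 2.32-fold higher (log2 1.22 ± 0.24 SE, 95% interval 0.68 to 1.75, adjusted p = 0.00689). PGRP-LB, the amidase outside the cluster, had 128, 167 and 97.5 CPM in dsxRNAi males and 105, 102 and 104 CPM in control males. One dsxRNAi male library was below all controls, and the log2 change of 0.34 missed the threshold (adjusted p = 0.139). Without dsxRNAi male 3 it was 0.53 (adjusted p = 0.00771).

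By role, 3 of 4 amidases rose in dsxRNAi males and none fell, while 2 of the other 6 genes fell (PGRP-LC, and PGRP-SA in a call that most other settings ended) and none rose. Over all genes tested, 8.05% were called higher and 6.59% lower in this comparison, and 14.6% either way. The median log2 change was 2.60 for the amidases and -0.16 for the other 6 genes, against -0.01 for all genes tested. PGRP-SC1a and PGRP-SC1b, near-identical copies, enter the amidase count and median as separate genes. Summed, the pair gave a log2 change of 4.07, beside 1.22 for PGRP-SC2 and 0.34 for PGRP-LB. For 6 of the 10 genes the male groups did not overlap, 3 higher and 3 lower, where 38.6% of all genes tested did not overlap. An exact two-sided permutation test of each of these gave p = 0.1, the smallest that 3 libraries against 3 can give.

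Without control female 1, dsxRNAi male 2 and control male 1 the 3 amidase calls in males held, at log2 3.62 for PGRP-SC1a, 3.48 for PGRP-SC1b and 0.99 for PGRP-SC2. Cell type markers moved beside these changes, in a comparison where 8.05% of all genes tested were called higher and 6.59% lower. Of 11 enterocyte markers 3 rose in dsxRNAi males (the amylase genes Amy-p and Amy-d, and the sterol uptake gene Npc1b), and the 11 summed to 75779 to 92069 CPM in dsxRNAi males and 56791 to 61832 in control males. The amylase genes made up most of that difference, with Amy-p at 22526 CPM on average in dsxRNAi males and 13201 in control males, and Amy-d at 19639 and 11478 in those groups. Of 10 enteroendocrine markers 5 fell, with a summed level of 578 to 652 CPM in dsxRNAi males and 738 to 774 in control males. Of 6 progenitor markers 1 fell, and the 6 summed to 89.9 to 112 CPM in dsxRNAi males and 124 to 152 in control males. The lists of 9 tested visceral muscle, 3 Malpighian tubule and 3 tested tracheal markers each had 1 gene called lower. In whole midguts, fewer cells of a type and less RNA per cell cannot be told apart, and the part of these markers in the amidase changes was not tested.

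In females no recognition protein gene passed the test under dsxRNAi, and neither did dsx itself (log2 -0.04, edgeR adjusted p = 0.946). Over all genes tested, 3.46% were called by edgeR in this comparison (1.91% higher and 1.55% lower). Of the 10 recognition protein genes, 0 were called by edgeR's quasi-likelihood test and 0 by DESeq2. PGRP-LA alone had an unadjusted p under 0.05, where 14.4% of all genes tested did. Among all genes DESeq2 called 601 in this comparison. PGRP-SC1a had 25.7, 22.1 and 18.7 CPM in dsxRNAi females and 18.3, 18.8 and 19.0 CPM in control females, which overlap. Its log2 difference was 0.24 (95% interval -0.41 to 0.90, adjusted p = 0.799). PGRP-SC1b had 27.0, 22.0 and 23.0 CPM in dsxRNAi females and 17.8, 18.3 and 16.3 CPM in control females. All dsxRNAi female libraries were above the controls, but the log2 difference of 0.46 missed the threshold (95% interval -0.16 to 1.08, adjusted p = 0.523).

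The other amidases gave small female differences. PGRP-SC2 had 862, 1055 and 666 CPM in dsxRNAi females and 537, 917 and 866 CPM in control females, a log2 difference of 0.16 (adjusted p = 0.858) between groups that overlapped widely. PGRP-LB had 98.3, 104 and 97.2 CPM in dsxRNAi females and 78.0, 83.9 and 86.9 CPM in control females. Those groups were apart, at a log2 difference of 0.27 (adjusted p = 0.438). The female amidase median was 0.26 on the log2 scale, that of the other 6 genes -0.10, and that of all genes tested 0.00. Female groups were apart for 2 of the 10 genes (PGRP-SC1b and PGRP-LB), where 17.0% of all genes tested were.

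Whether the dsxRNAi effect differed by sex was itself tested, and 2 of 10 genes passed, both amidases and both lower in the female effect, where 0.805% of all genes tested were called (0.547% lower and 0.258% higher). For PGRP-SC1a the female effect minus the male effect was -3.92 ± 0.43 SE on the log2 scale (adjusted p = 0.00308). For PGRP-SC1b the difference was -3.52 ± 0.40 SE (adjusted p = 0.00311). For PGRP-SC2 it was -1.06 ± 0.34 SE and missed the threshold (adjusted p = 0.183 by edgeR, 0.0343 by DESeq2). For PGRP-LB it was -0.07, with a 95% interval of -0.51 to 0.37.

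**Figure D2:**
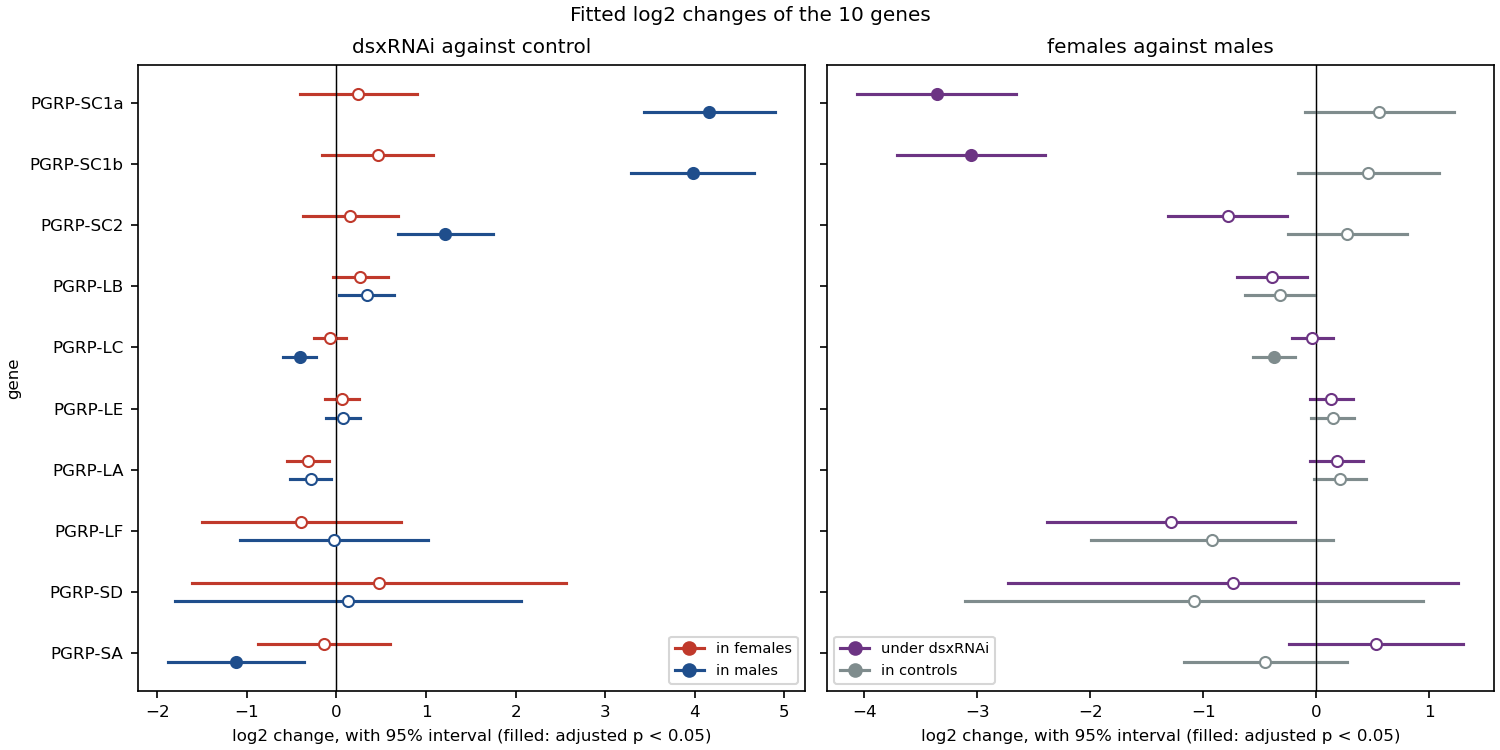
Fitted log2 changes (horizontal axes) of the 10 genes with 95% intervals from edgeR, for dsxRNAi against control in each sex on the left and for females against males in each genotype on the right. Filled points have an adjusted p under 0.05. On the left only male points are filled, at 4.16, 3.98 and 1.22 for the clustered amidases, -0.41 for PGRP-LC and -1.12 for PGRP-SA.

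Between the sexes, the comparisons share libraries with those above and are given side by side. Under dsxRNAi, 2 of 10 genes were called, both lower in females, where 7.06% of all genes tested were called lower, 7.76% higher and 14.8% either way. PGRP-SC1a was 10.3-fold lower in dsxRNAi females than in dsxRNAi males (log2 -3.36, adjusted p = 0.000323) and PGRP-SC1b 8.32-fold lower (log2 -3.06, adjusted p = 0.000324). PGRP-SC2 was apart as well, lower in dsxRNAi females at log2 -0.78, but just missed the threshold (adjusted p = 0.0508). DESeq2 called PGRP-SC2, PGRP-LB and PGRP-LF in addition. These groups were apart for 6 of the 10 genes, where 35.7% of all genes tested were.

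In control flies, 1 of 10 genes was called, PGRP-LC, lower in females, where 9.27% of all genes tested were called lower, 10.7% higher and 20.0% either way. The control sexes were apart for PGRP-SC1a and PGRP-SC1b, higher in control females at log2 0.56 (adjusted p = 0.22) and 0.46 (adjusted p = 0.285). PGRP-LB was apart in the other direction at log2 -0.32 (adjusted p = 0.136). A fit of only the control groups called these 3 genes too, and the 2 control sexes differed by a log2 change of 0.28 for PGRP-SC2 (adjusted p = 0.469). Groups were apart in this comparison for 37.4% of all genes tested, against 4 of the 10 here.

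PGRP-LC, the membrane receptor that activates the Imd pathway, was the receptor whose level changed. It had 34.8, 36.3 and 35.3 CPM in dsxRNAi males, against 43.2, 47.4 and 51.1 CPM in control males. All dsxRNAi male libraries were below all control male libraries, at 0.751-fold the control level (log2 -0.41 ± 0.08 SE, adjusted p = 0.00627). Females had 34.8, 33.0 and 36.2 CPM under dsxRNAi and 36.4, 32.5 and 40.6 CPM in controls, overlapping groups that differed by log2 -0.07 (adjusted p = 0.786).

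Control females were below control males for PGRP-LC by log2 -0.37 (adjusted p = 0.00787), whereas dsxRNAi females and dsxRNAi males differed by log2 -0.03 with a 95% interval of -0.22 to 0.15. The difference between the female and male dsxRNAi effects on PGRP-LC was log2 0.34 and missed the threshold (adjusted p = 0.214). Both PGRP-LC calls ended where a log2 change of at least 1 was required. They held in each of the 22 other settings that kept the thresholds, at -0.49 to -0.35 for males and -0.45 to -0.28 for the control sexes. The PGRP-LC level per kb was 0.316 to 0.321 times that of PGRP-LE in dsxRNAi males and 0.391 to 0.540 times in control males. The size of this ratio depends on the exon lengths used.

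PGRP-LE, the intracellular receptor of peptidoglycan fragments, passed no test. It had 61.0, 63.3 and 61.0 CPM in dsxRNAi males and 61.3, 62.3 and 52.4 CPM in control males, and 61.8, 73.7 and 67.6 CPM in dsxRNAi females and 60.2, 69.6 and 65.0 CPM in control females. Groups overlapped within each sex. The male log2 difference was 0.07 with a 95% interval of -0.12 to 0.26, and the female one 0.06 with an interval of -0.13 to 0.25.

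Of the membrane regulators, PGRP-LA had 24.0, 22.3 and 22.8 CPM in dsxRNAi males and 25.5, 26.4 and 32.5 CPM in control males. The male groups were apart, at log2 -0.29 (adjusted p = 0.0943). In females it had 24.6, 24.9 and 28.8 CPM under dsxRNAi and 35.8, 28.4 and 33.4 CPM in controls, at log2 -0.32 (adjusted p = 0.155), and 1 library of each group overlapped.

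PGRP-LF, which lacks a signalling tail and inhibits PGRP-LC, varied widely between libraries of a group, except in dsxRNAi females. It had 3.21, 6.31 and 1.92 CPM in dsxRNAi males and 2.04, 3.39 and 6.28 CPM in control males. In females it had 1.51, 1.55 and 1.66 CPM under dsxRNAi and 3.11, 1.58 and 1.48 CPM in controls. The male log2 difference was -0.03 with a 95% interval of -1.07 to 1.02, an interval that holds a 2-fold change in either direction. Between the sexes PGRP-LF was lower in dsxRNAi females than in dsxRNAi males, in groups that were apart, at log2 -1.28 (adjusted p = 0.108 by edgeR, 0.0294 by DESeq2). In controls the difference was -0.92 (adjusted p = 0.215), and -1.67 without the 3 libraries that stood apart (adjusted p = 0.0059). With the shared exon, reads of PGRP-LF and UGP can be told apart only by strand, and the strand setting of the counting is not given in the sources used here. UGP averaged 45.1 ± 3.81 CPM in dsxRNAi males and 42.8 ± 1.07 in control males.

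The secreted recognition proteins were rare in every library. PGRP-SA, which acts with GNBP1 upstream of Toll, had 0.42, 0.59 and 0.47 CPM in dsxRNAi males, against 0.67, 0.94 and 1.64 CPM in control males. The male groups did not overlap, and the counts behind them ran from 15 to 23 in dsxRNAi males and from 29 to 74 in control males. PGRP-SA fell by 1.12 on the log2 scale (95% interval -1.88 to -0.36, adjusted p = 0.049), at the edge of the threshold. Leaving out any 1 of 11 of the 12 libraries ended the call, with adjusted p between 0.0505 and 0.236, and without control male 3 the log2 change was -0.69.

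Hemocyte markers stood beside the PGRP-SA result, since blood cells and fat body are known sources of the protein. Of 6 hemocyte markers 1, the scavenger receptor gene Sr-CI, fell in dsxRNAi males (log2 -1.84, adjusted p = 0.0108), where 6.59% of all genes tested were called lower. The 6 summed to 139 to 199 CPM in dsxRNAi males and 189 to 203 in control males. Those ranges overlapped. Without crq, which made up most of that sum, the other 5 summed to 5.18 to 6.41 CPM in dsxRNAi males and 8.32 to 14.7 in control males. The sum without crq was chosen after the data were seen. Of 6 tested fat body markers 0 were called in males by edgeR or DESeq2 and 0 had an unadjusted p under 0.05. Among all genes tested in males, edgeR called 14.6%, and 29.4% had an unadjusted p under 0.05. All 8 listed fat body markers summed to 3.36 to 12.4 CPM in dsxRNAi males and 4.19 to 7.04 in control males. The part of such cells in the PGRP-SA difference was not tested. In females PGRP-SA had 0.60, 0.61 and 0.94 CPM under dsxRNAi and 0.81, 0.80 and 0.76 CPM in controls. The log2 difference was -0.14 (edgeR adjusted p = 0.925). Of the 6 tested fat body markers, edgeR called 2 lower in dsxRNAi females, where 1.55% of all genes tested were. An unadjusted p under 0.05 was found for 6 of 6, against 14.4% of all genes. All 8 listed summed to 20.0 to 49.2 CPM in dsxRNAi females and 82.8 to 154 in control females. The 5 hemocyte markers without crq summed to 7.08 to 14.5 CPM in dsxRNAi females and 10.1 to 22.8 in control females, which overlapped.

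PGRP-SD, a secreted recognition protein first described in the Toll pathway, had 0.23, 1.49 and 0.71 CPM in dsxRNAi males and 0.19, 0.35 and 1.68 CPM in control males. In females it had 0.30, 0.25 and 0.92 CPM under dsxRNAi and 0.63, 0.13 and 0.28 CPM in controls. Single libraries spread over most of the range in each group, on 5 to 76 counts. The male log2 difference was 0.13 with a 95% interval of -1.80 to 2.06.

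Of 3 further genes of the family, PGRP-SB1 had 0 to 6 counts per library and PGRP-SB2 had 2 counts in control male 1 and 0 in the other 11 libraries, so neither was tested. A count of 0 allows up to 3 counts in a library. PGRP-LD had 5 to 31 counts and was not called in any comparison. It shares 3563 of its 3957 exonic bases with Pmi on the same strand, so its counts may cover little of the gene.

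Amidases were then set against receptors within each library, as the sum of the 4 amidase levels over the sum of PGRP-LC and PGRP-LE, all per kb of exon. The ratio was 53.3, 87.4 and 54.6 in dsxRNAi males and 23.9, 21.5 and 23.7 in control males. In females it was 32.5, 34.4 and 23.5 under dsxRNAi and 20.8, 31.2 and 29.6 in controls. Only dsxRNAi males stood apart from the other 3 groups, whose libraries ran from 20.8 to 34.4. The means were 30.1 ± 5.82 in dsxRNAi females, 27.2 ± 5.62 in control females, 65.1 ± 19.3 in dsxRNAi males and 23.1 ± 1.32 in control males (SD, n = 3 each). The ratio is a description whose size depends on the exon lengths used, and no test was made over these chosen genes.

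The amidase side of the ratio carried the difference. The receptor sum stayed between 38.7 and 44.4 CPM per kb in all 12 libraries. The amidase sum was 2063 to 3518 CPM per kb in dsxRNAi males and 920 to 984 in control males. PGRP-SC2 supplied most of it in every group, 77.7 ± 5.31% in dsxRNAi males and 90.7 ± 0.654% in control males. The PGRP-SC1 pair supplied 13.6 to 22.5% in dsxRNAi males, against 2.55 to 5.21% in the other 9 libraries. With the PGRP-SC1 pair left out the ratio was still 52.3 ± 14.2 in dsxRNAi males and 22.4 ± 1.38 in control males.

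**Figure D3:**
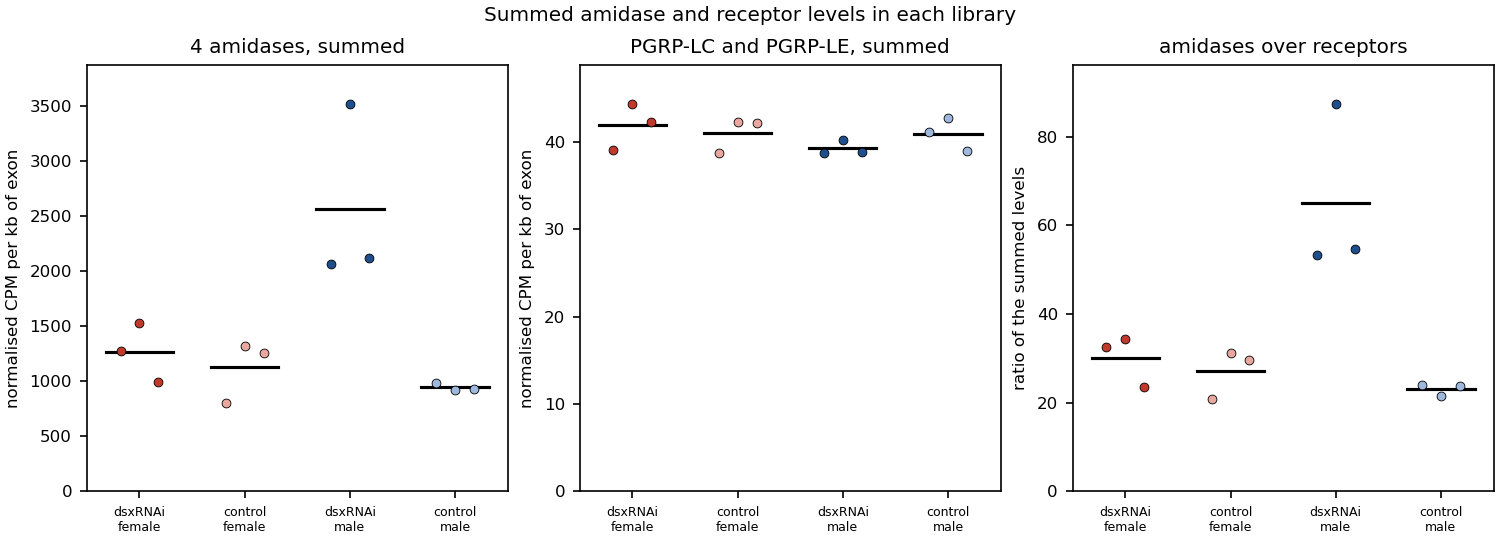
Summed level of the 4 amidases (left) and of PGRP-LC and PGRP-LE (middle), in normalised CPM per kb of exon, and their ratio (right), in each of 12 libraries by group. Points are libraries, bars are group means and axes start at 0. The receptor sums lie between 38.7 and 44.4 in all libraries, while the 3 dsxRNAi male ratios of 53.3 to 87.4 lie above all others.

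The rest of the Imd pathway was examined through 13 core genes, which run from the adaptor imd to the factor Rel, and 8 inhibitors. Of the core genes 0 of 13 were called under dsxRNAi in either sex by edgeR. That test called 14.6% of all genes tested in males and 3.46% in females. The median log2 change of the core genes was -0.06 in males and -0.04 in females. At an unadjusted p under 0.05 there were 3 core genes in males and 0 in females, against 29.4% and 14.4% of all genes tested. DESeq2 called 1 core gene in males, akirin, and 0 in females. Among all genes DESeq2 called 1793 in males and 601 in females. Of the inhibitors 0 of 8 were called in either sex by edgeR, with medians of -0.02 in males and 0.00 in females. Only pirk in males had an unadjusted p under 0.05, and DESeq2 called that gene alone. The E2 ubiquitin enzyme gene ben was the only core gene called between the sexes by edgeR. It was higher in females at log2 0.29 under dsxRNAi (adjusted p = 0.00909) and 0.23 in controls (adjusted p = 0.0201). Of the inhibitors, scny was called higher and Tg and trbd lower in control females than in control males. Under dsxRNAi casp was called higher and pirk lower in females. Among all genes tested, 20.0% were called between control sexes and 14.8% between dsxRNAi sexes.

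Among the inhibitors, pirk, which disrupts receptor signalling and is itself an Imd target, had 151, 365 and 76.8 CPM in dsxRNAi males and 26.2, 57.4 and 95.1 CPM in control males. The groups overlapped, and the log2 difference of 1.73 missed the threshold with edgeR (adjusted p = 0.128). In females pirk had 13.0, 22.4 and 30.4 CPM under dsxRNAi and 33.0, 15.5 and 16.6 CPM in controls. It was lower in dsxRNAi females than in dsxRNAi males by log2 -3.17 (adjusted p = 0.0227). Rel, chosen after its values were seen, had 213, 237 and 145 CPM in dsxRNAi males and 142, 160 and 238 CPM in control males.

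**Figure D4:**
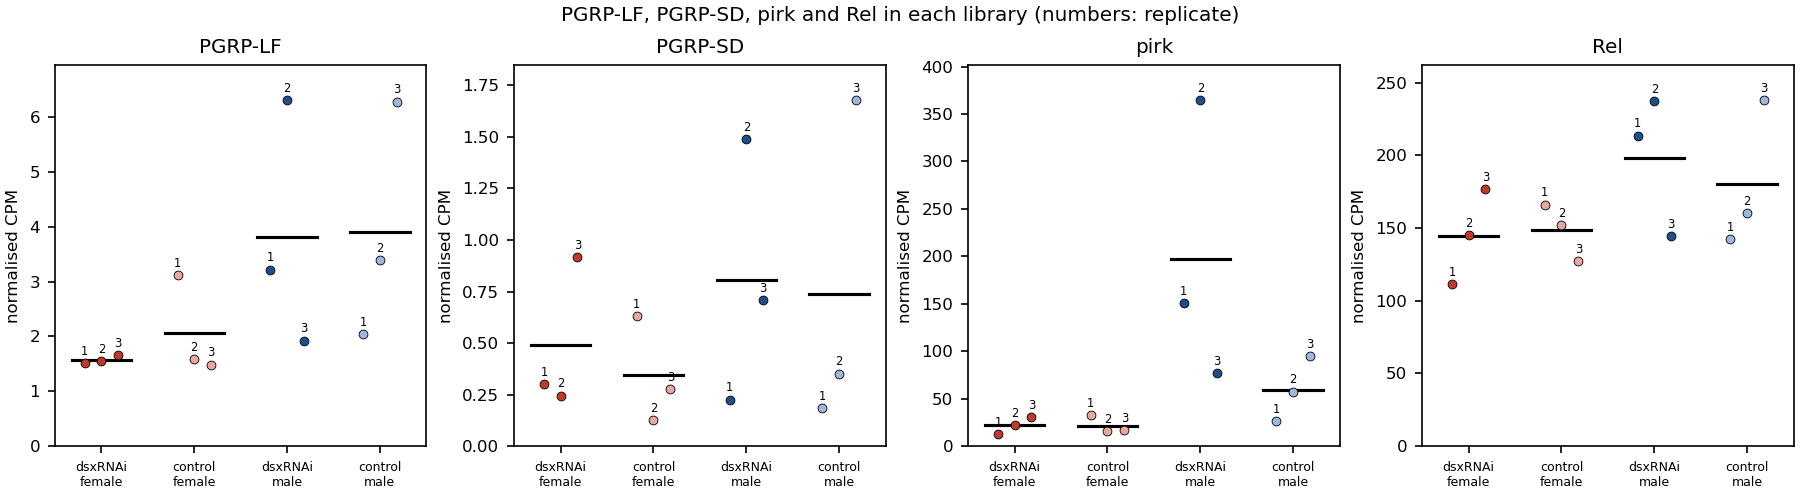
Normalised CPM (vertical axes, starting at 0) of PGRP-LF, PGRP-SD, pirk and Rel in each library, by group, with replicate numbers above the points and bars at group means. Among males, dsxRNAi replicate 2 and control replicate 3 hold the highest values of each group for all 4 genes.

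In 1 group a single library led for nearly all genes. DsxRNAi male 2 was the highest of its group for 9 of the 10 recognition protein genes, all but PGRP-LA. Control male 3 was the highest of its group for PGRP-LC, PGRP-LA, PGRP-LF, PGRP-SD and PGRP-SA, and dsxRNAi female 3 for the same 5. Control female 1 led its group for PGRP-LA, PGRP-LF, PGRP-SD and PGRP-SA. In those 3 groups each library led for 2 to 5 of the 10 genes, and no test was made of these orders.

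Antimicrobial peptide genes, the output of the pathway, were scarce. Only 6 of 18 such genes passed the filter on low counts, and 0 of 6 were called in males and 1 of 6 in females by edgeR. Over all genes tested, 14.6% were called in males and 3.46% in females. Unadjusted p-values were under 0.05 for 2 in males and 3 in females, against 29.4% and 14.4% of all genes tested. DESeq2 called 1 in males (Drsl2) and 2 in females (Drsl2 and Def). Among all genes DESeq2 called 1793 in males and 601 in females. The gene called by edgeR was Drsl2, of the drosomycin-like family, with 17.0, 7.46 and 26.4 CPM in dsxRNAi females, against 1.96, 0.50 and 1.13 CPM in control females (log2 3.80, adjusted p = 0.0144). The list's median log2 change was -0.37 in males and -1.55 in females. The inducible gene AttC had 0 counts in the 3 dsxRNAi male libraries and 32 in the 3 control male libraries together (edgeR adjusted p = 0.128).

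In the Toll pathway 2 of 14 genes fell in dsxRNAi males, where 6.59% of all genes tested were called lower and 14.6% either way. They were the inhibitor gene cact (log2 -0.43, adjusted p = 0.00459) and Dif, which encodes an NF-kappaB factor (log2 -0.29, adjusted p = 0.0258). In females 0 of 14 were called under dsxRNAi by either tool, and 2 had an unadjusted p under 0.05. Among all genes tested in females, edgeR called 3.46%, and 14.4% had an unadjusted p under 0.05. The list medians were -0.25 in males and -0.04 in females. Between control sexes cact, Dif and the protease gene grass were lower in females, at log2 -0.41, -0.39 and -1.79. Of 7 genes of the gut's oxidative and stress response 0 were called in either sex by edgeR or DESeq2. In each sex 1, Irc, had an unadjusted p under 0.05, where 29.4% of all genes did in males and 14.4% in females.

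Lysozymes cut peptidoglycan at its sugar backbone, where amidases cut the peptide link. They were the only other immune list with genes called higher in dsxRNAi males by edgeR. Genes outside the immune lists rose as well, among them the amylase genes named above. In dsxRNAi males 4 of 6 tested lysozyme genes rose and 1 fell, where 8.05% of all genes tested were called higher and 6.59% lower. The list median in males was 1.97 on the log2 scale. Of the 6 genes, 0 were called in females by edgeR, at a median of 0.24. In females LysP alone had an unadjusted p under 0.05 and was called by DESeq2. Among all genes tested in females, edgeR called 3.46%, and 14.4% had an unadjusted p under 0.05. LysB had 51.0, 76.3 and 43.6 CPM in dsxRNAi males, against 14.8, 13.2 and 10.3 CPM in control males (log2 2.15, adjusted p = 0.000168). LysE (log2 2.48), LysD (1.78) and LysC (1.33) rose with it, and these 4 are similar copies whose reads may be split with error. LysX fell, to 2.59, 2.46 and 4.70 CPM in dsxRNAi males, against 12.6, 16.4 and 38.6 CPM in control males (log2 -2.80, adjusted p = 0.0272). For LysB and LysE the female dsxRNAi effect was below the male one by log2 -1.68 (adjusted p = 0.0392) and -1.98 (adjusted p = 0.0358).

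**Figure D5:**
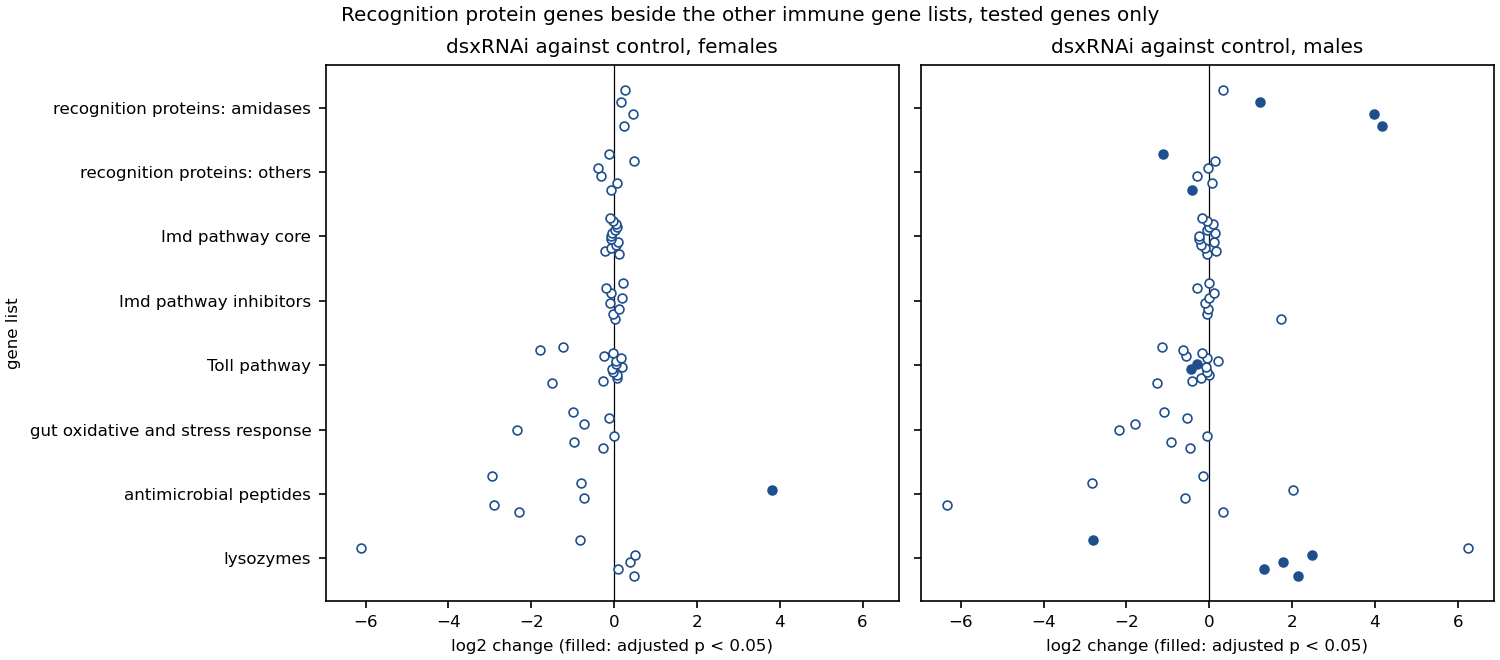
Fitted log2 changes under dsxRNAi (horizontal axes) of the 10 recognition protein genes and of the tested genes of 6 other immune lists, in females on the left and males on the right. Each point is a gene and filled points have an adjusted p under 0.05. In males the filled points to the right of 0 are 3 amidases and 4 lysozymes.

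Position along the gut was described by 8 regional transcription factor genes, because the clustered amidases are known to be expressed by region. In either sex 0 of 8 were called under dsxRNAi by edgeR or DESeq2. In each sex 1 had an unadjusted p under 0.05 (lab in males, exex in females). List medians were -0.02 in males and 0.07 in females. Among all genes tested, edgeR called 14.6% in males and 3.46% in females. An unadjusted p under 0.05 was found for 29.4% of them in males and 14.4% in females. Between control sexes lab was higher (log2 0.63, edgeR adjusted p = 0.00254) and exex lower (log2 -0.36, edgeR adjusted p = 0.0234) in females. In that comparison 20.0% of all genes tested were called. The neighbour of the cluster, CG14767, did not pass the test in males (114 ± 4.44 CPM in dsxRNAi males, 132 ± 9.10 in control males, log2 -0.20, adjusted p = 0.0972).

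Genes outside the family were ranked by how closely their pattern over the 12 libraries followed that of a recognition protein gene, as the root mean square difference of centred log2 CPM among 6038 genes. For the summed PGRP-SC1 pair, which itself had a root mean square of 1.58 around its mean, the closest were LysB at 0.842, Pebp1 at 0.870 and the Jonah protease gene Jon25Bi at 0.891. None of them followed the pair closely, and in males each changed less under dsxRNAi. Pebp1 averaged 2500 ± 541 CPM in dsxRNAi males and 526 ± 127 in control males, and Jon25Bi 4494 ± 1038 and 649 ± 77.2 in those groups.

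PGRP-SC2, with a root mean square of 0.521, had closer neighbours in pug (0.189), CG6295 (0.194) and CG17896 (0.195). All 3 rose in dsxRNAi males, at log2 1.20, 1.24 and 0.89. For PGRP-LC (0.199) the closest were CG15365 (0.0780), CG12576 (0.0830) and the glypican gene dlp (0.0870), which were lower in dsxRNAi males at log2 -0.38, -0.30 and -0.28. For PGRP-SA (0.484) the closest were Atg18b (0.265), Rhp (0.266) and CG10126 (0.266). All genes of closest pattern were picked over the same 12 libraries. Their changes in males follow in part from that choice and are not separate results.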

How the data were processed

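For each of 12 libraries the authors deposited raw read counts by gene. The authors aligned reads with TopHat2 2.0.11 to dm6 and counted them with featureCounts, per the submitters' processing notes, and the libraries came from a directional poly-A kit, per the labels' protocols. The strand setting, annotation release and read filters were not given in the sources used here. Of 17558 rows, 171 without a symbol held 2.17% of counts and were tested but not named. Positions, exon lengths and overlaps came from Ensembl release 115 on dm6 coordinates.

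The counts were fitted in edgeR 4.0.16 under R 4.3.3: expression filter at a minimum count of 10, scaling by trimmed mean of M values (TMM), and a robust quasi-likelihood fit of 4 group means to all 12 libraries. Adjusted p-values are Benjamini-Hochberg values over 9686 genes per contrast, with calls under 0.05, and 5 contrasts were made. Normalised CPM is the count relative to the TMM-scaled library size. Levels are mean ± SD of 3 libraries. Log2 changes were fitted with a prior count of 0.125. The pattern ranking used genes whose log2 CPM averaged at least 3, and an offset of 0.5 counts. The fit was tested on simulated data with known changes.

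The 10 genes, the 20 gene lists and the alternatives were chosen with earlier results of these data known. Of 164 list entries, 159 were found in the table, and the other 5 were not analysed here. Named genes were the 10 with their family, up to 4 called genes of each list by smallest p, abundant genes of lists without a call as values, and the 3 genes of closest pattern. Fewer are named in the text, and AttC was named after its values were seen. Sequences and protein alignments were not used here. DESeq2 1.42.0 was an alternative, and figures used matplotlib 3.10.9 under Python 3.11.15. Tested genes had a median of 638 counts in a library, and PGRP-SD and PGRP-SA were the thinnest of the 10 genes. Limits from a count of 0 cover counting error only.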

Additional observations from a re-analysis of the deposited data

Results flagged for a closer look

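PGRP-SC1a and PGRP-SC1b stood out because their dsxRNAi effect differed between the sexes in a direct test of that difference. For PGRP-SC1a the female effect minus the male effect was -3.92 on the log2 scale (edgeR adjusted p = 0.00308). For PGRP-SC1b it was -3.52 (edgeR adjusted p = 0.00311). Both differences were called in each of the 21 other settings that could give a value, at -4.23 to -3.39 for PGRP-SC1a and -3.83 to -3.00 for PGRP-SC1b. All 3 dsxRNAi male libraries lay above all 9 other libraries for both genes. The genes are near-identical copies, so they are not independent results, and summed they gave -3.72. The groups of 3 libraries were too small for a test of single outlying libraries.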

How the results depend on the processing

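The male calls of PGRP-SC1a, PGRP-SC1b, PGRP-SC2 and PGRP-LC were kept in all 22 other settings that left the thresholds as they were. PGRP-LC was lost where a log2 change of at least 1 was required. No recognition protein gene was called in females in any setting. No called value changed sign. The count of 5 in males was 4 to 5 with a library left out. Between control sexes the count of 1 became 4 when only the groups compared were fitted, 2 without the 3 libraries that stood apart (chosen after seeing the data), 0 with a log2 change of at least 1, and 1 to 3 with a library left out (3 without dsxRNAi male 2, 2 without dsxRNAi male 3). Under dsxRNAi the count between sexes of 2 became 5 with DESeq2 and 1 with PGRP-SC1a and PGRP-SC1b summed, and the count of 2 for the difference of effects became 1 with both summed, since they then count as 1 gene. The cause of the other shifts was not tested.

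Without length scaling the amidase to receptor ratio was 9.84 in dsxRNAi females, 8.75 in control females, 20.9 in dsxRNAi males and 7.25 in control males, since the amidase genes are shorter. Same-numbered libraries of 2 groups correlated by -0.28 to 0.097 in their deviations, and the main fit did not pair them. Between the female groups each same-numbered correlation (0.092, 0.085 and 0.021) was above the best one with another number. In each other comparison at least some were not, so these weak correlations cannot settle whether the numbers pair libraries. With a replicate block the counts were 0 in females, 4 in males (PGRP-SA at adjusted p = 0.0538), 1 between control sexes, 3 between dsxRNAi sexes and 2 for the difference of effects. PGRP-SA was also lost with relative log expression scaling (adjusted p = 0.0506), without a filter (0.0728) and in a fit of the male groups alone (0.0871).

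The count of all genes called moved as well. In females 335 became 601 with DESeq2, 221 in a fit of those groups, 204 to 374 with a library left out (204 without dsxRNAi female 2, 214 without control female 3), 160 at adjusted p under 0.01 and 169 at a log2 change of at least 1. In males 1418 became 856 without control male 2, 921 without control male 3, 670 at the stricter p and 346 at that log2 change. Between control sexes 1937 became 1018 and 359 at these limits. Between dsxRNAi sexes 1436 became 637 without dsxRNAi female 3, 671 without dsxRNAi male 2, 455 and 234 at the limits, and 783 without the 3 libraries. For the difference of effects 78 became 341 with DESeq2, 33 to 127 with a library left out, 22 and 48 at the limits, and 166 without the 3 libraries. Depth limits PGRP-SD and PGRP-SA, on 5 to 76 counts, and library spread limits PGRP-LF.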
